A study of Mus musculus with 4 samples.

Results

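Complement genes were examined in sorted cells of PDGF-B-driven mouse gliomas: the C1q subunit genes C1qa, C1qb and C1qc, the component genes C3 and C4b, the anaphylatoxin receptor genes C3ar1 and C5ar1, and the inhibitor genes Serping1 and Cd55. A gene was included where a probe set of the arrays named it alone, and where several did the brightest on average over the 4 arrays was kept. This gave 8 of the 9 genes, each with 1 probe set, among 19937 genes in all. C3 was named by no probe set in the annotation used and was not analysed here.

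All 4 samples came from C57/Bl6 mice whose embryos received, at embryonic day 14, a retrovirus expressing PDGF-B together with EGFP, and all consisted of EGFP-positive cells sorted from the dissociated tumours. The early-onset group held 2 pools of low-grade glioma cells, each from 2 tumours, here pool 1 and pool 2. The late-onset group held 2 samples of high-grade glioma cells, each from 1 tumour, here tumour 1 and tumour 2. The ages of the mice at onset and the promoter of the retrovirus are not given in the sources used here. No sample of normal brain and none without PDGF-B was among them, so every comparison is of late-onset with early-onset tumours.

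Complement is a cascade of plasma and tissue proteins that tags targets for phagocytosis, attracts leukocytes and can perforate membranes. The classical pathway starts when C1q, a bundle of A, B and C chains with collagen-like stalks and globular heads, binds a target and its attached proteases cleave C4 and C2, which leads to cleavage of C3 and C5 and release of the peptides C3a and C5a. In brain, microglia are the main makers of C1q and carry the receptors for C3a and C5a, astrocytes can make C4 and C3, and C1q and C3 are known for tagging synapses that microglia remove.

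The C1q genes and both anaphylatoxin receptor genes fell in late-onset cells, C4b rose, and the inhibitor genes Serping1 and Cd55 did not pass the test. Of the 8 genes, 5 fell, against a background of 8.12% of the 19937 genes tested, and 1 rose, against 6.59%. A gene was called where its adjusted p was below 0.05 by limma with Benjamini-Hochberg adjustment over all genes. Both late-onset values lay below both early-onset values in 6 of the 8 genes (30.4% of all genes) and above them in 1 (28.5%). The median log2 difference was -3.20 over the 8 genes and -0.01 over all genes tested. These genes were chosen with results of the same arrays known, so the counts describe them and are not independent evidence.

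The labelled cell type was checked against markers of oligodendrocyte progenitors, the cells that such gliomas resemble, and these were present on every array. Olig2 stood between 11.89 and 12.12, Sox10 between 11.49 and 11.52 and Pdgfra between 13.20 and 13.71 on the log2 scale over the 4 arrays. Of 10 such markers 3 fell and 0 rose, against 8.12% and 6.59% of all genes, with a median log2 difference of -0.44. Their presence does not measure how pure the sorted cells were. Microglia and macrophage markers were also present in the pools, Csf1r for example at 11.37 and 11.25. The arrays correlated over all probe sets at r = 0.992 between the pools, 0.988 between the tumours and 0.972 to 0.974 across groups, as a description. The number of arrays limits the precision.

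The promoters of the genes that fell are shown because these genes moved in the same direction. C5ar1 differed from the others in its gaps within the groups, and shared regulation was not tested. RefSeq promoter entries (GRCm38.p6) were found for 4 of the 5, and the 250 bases before the transcription start are printed 5′ to 3′ on the gene's strand. Capitals mark AGGAAG, the core that ETS factors such as the myeloid factor PU.1 prefer, and TGACTCA, the AP-1 motif, each on either strand, so that AGGAAG on the opposite strand reads CTTCCT. The 2 motifs share no bases in these windows. C1qb lies at chr4:136886201-136886450, C1qc at chr4:136892915-136893164, C3ar1 at chr6:122856158-122856407 and C5ar1 at chr7:16259339-16259588, all on the minus strand.
C1qb: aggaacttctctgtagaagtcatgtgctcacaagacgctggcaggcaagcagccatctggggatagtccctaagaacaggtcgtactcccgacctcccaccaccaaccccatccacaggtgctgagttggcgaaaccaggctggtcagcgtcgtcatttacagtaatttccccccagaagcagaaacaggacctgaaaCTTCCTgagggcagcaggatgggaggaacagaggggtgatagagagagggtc
C1qc: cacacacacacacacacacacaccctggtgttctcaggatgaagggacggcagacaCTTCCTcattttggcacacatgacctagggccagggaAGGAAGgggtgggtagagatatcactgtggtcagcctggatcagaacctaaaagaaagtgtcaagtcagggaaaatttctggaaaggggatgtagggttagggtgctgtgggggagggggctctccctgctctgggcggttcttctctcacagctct
C3ar1: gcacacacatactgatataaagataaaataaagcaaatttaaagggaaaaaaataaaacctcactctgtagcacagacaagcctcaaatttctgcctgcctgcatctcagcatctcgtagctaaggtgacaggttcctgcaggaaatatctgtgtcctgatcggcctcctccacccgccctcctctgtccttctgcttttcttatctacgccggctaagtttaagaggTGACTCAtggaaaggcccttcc
C5ar1: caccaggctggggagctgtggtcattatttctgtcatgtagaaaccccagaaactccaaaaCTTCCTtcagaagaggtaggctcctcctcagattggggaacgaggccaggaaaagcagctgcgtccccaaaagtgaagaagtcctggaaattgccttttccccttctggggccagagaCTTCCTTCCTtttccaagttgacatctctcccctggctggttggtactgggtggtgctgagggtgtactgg

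AGGAAG occurred in 3 of the 4 windows, those of C1qb, C1qc and C5ar1, and in 29.5% of the 32851 promoter windows of the same length in the table. In C1qb the match covered bases 52 to 47 before the start. C1qc had 2 matches, at bases 194 to 189 and 157 to 152, and C5ar1 had 3, a pair of which overlap between bases 71 and 62. TGACTCA occurred in 1 window, that of C3ar1, at bases 22 to 16, and in 4.46% of all windows. Both motifs were chosen after the sequences had been seen, and a match describes letters, not binding.

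The C1q genes stood far lower in late-onset cells, by nearly equal amounts. C1qa, which encodes the A chain, had log2 values of 12.19 in pool 1, 12.11 in pool 2, 7.67 in tumour 1 and 8.62 in tumour 2. C1qb, for the B chain, had 12.13, 11.97, 7.54 and 8.37 in the same order. C1qc, for the C chain, had 12.35, 12.25, 7.89 and 8.80. In each gene the pools were close together, tumour 2 was above tumour 1, and both tumours were far below both pools.

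The group means of C1qa were 12.15 ± 0.05 and 8.15 ± 0.67 (mean log2 value ± SD, n = 2 each), a log2 difference of -4.004 (SE 0.31, limma adjusted p 0.00345), or 16.0-fold lower in late-onset cells. C1qb was lower by 17.1-fold, at -4.10 (SE 0.28, limma adjusted p 0.00264). C1qc was lower by 15.5-fold, at -3.95 (SE 0.30, limma adjusted p 0.00334). The 3 log2 differences lay within 0.15 of one another. After each gene's mean was subtracted, the 3 genes lay within 0.12 of one another on every array. The proteins assemble in a fixed proportion, and the genes lie side by side on chromosome 4 in the order C1qb, C1qc, C1qa.

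**Figure D1:**
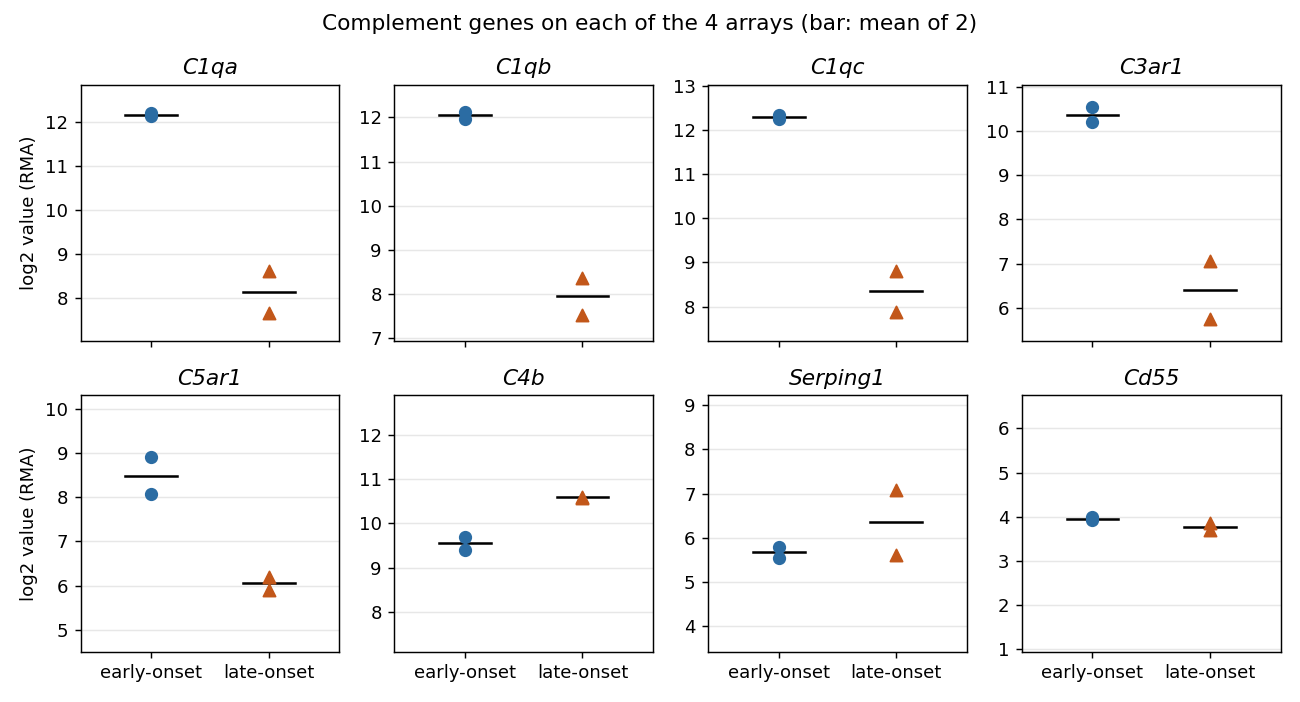
Log2 values (vertical axis, RMA) of the 8 genes on each array, with circles for the 2 early-onset pools, triangles for the 2 late-onset tumours and a bar at the mean; every panel spans the same number of log2 units, but levels cannot be compared between genes. The C1q genes, C3ar1 and C5ar1 lie lower in both tumours, C4b lies higher in both, and Serping1 is high in tumour 2 alone, at 7.09.

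No measured neighbour of the C1q genes was called. Of the 10 genes formed by the nearest 5 on each side of the C1q cluster, 0 were called by limma, with adjusted p from 0.0879 to 0.921 and log2 differences from -0.28 (Cela3a) to 0.38 (Kdm1a). The nearest measured gene on one side, Lactbl1, stood at -0.10 and on the other side Epha8, an ephrin receptor gene, at -0.02. These neighbours were looked up after the C1q values were known.

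The receptors for the complement peptides fell as well. C3ar1, the receptor for C3a, stood at 10.54 and 10.20 in the pools and at 5.75 and 7.06 in tumours 1 and 2. Its log2 difference was -3.96 (SE 0.43, limma adjusted p 0.00688), or 15.6-fold lower in late-onset cells. It was -3.31 without tumour 1 and -4.61 without tumour 2. The gap between the tumours was 1.30, the widest among the genes that fell, yet tumour 2 remained well below both pools.

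C5ar1, the receptor for C5a that draws neutrophils and macrophages, stood at 8.92 and 8.07 in the pools and at 5.90 and 6.20 in the tumours. Here it was the pools that differed, by 0.85, while the tumours lay 0.31 apart. The log2 difference was -2.44 (SE 0.29, limma adjusted p 0.00878), or 5.43-fold lower. It was -2.02 without pool 1 and -2.87 without pool 2. The tumour values of C5ar1, like that of C3ar1 in tumour 1, lay not far above 5.52, the lower quartile of the gene means. RMA understates a change at low levels, so these falls may be understated. C5ar2, the second C5a receptor, stood at 6.21 ± 0.14 and 5.75 ± 0.08 (mean log2 value ± SD, n = 2), with a log2 difference of -0.46 and a limma adjusted p of 0.0598, and was not called.

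Of 7 other complement receptor genes, 3 fell and 0 rose, against 8.12% and 6.59% of all genes. All 3 that fell encode integrin chains of phagocytes that bind C3 fragments. Itgam, which encodes the alpha chain of complement receptor 3, fell from 10.91 and 10.60 in the pools to 6.10 and 6.96 in the tumours, a log2 difference of -4.23 (limma adjusted p 0.00285). Its partner chain gene Itgb2 fell by 3.39 and Itgax, for the alpha chain of complement receptor 4, fell too (-2.91). Itgax stood at -2.29 without pool 1 and -3.53 without pool 2. Cr2, the receptor gene of B cells and follicular dendritic cells, was at -0.02, and Vsig4, a complement receptor gene of resident macrophages, at 0.17, neither called. Both were dim, at 4.32 to 4.42 for Cr2 and 3.89 to 4.10 for Vsig4, below 5.52, the lower quartile of the gene means. Cd93, a surface protein gene of endothelial and myeloid cells once described as a C1q receptor, went the other way without passing the test. It stood at 9.10 and 7.64 in the pools and at 11.41 and 10.25 in the tumours, a log2 difference of 2.46 with a limma adjusted p of 0.0504, and it was called in 8 of 14 other settings.

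C4b rose while the C1q genes fell. C4b encodes complement C4, the substrate of the C1 proteases, and stood at 9.40 in pool 1, 9.70 in pool 2, 10.58 in tumour 1 and 10.60 in tumour 2. The tumours differed by 0.01 and both lay above both pools. The means were 9.55 ± 0.22 and 10.59 ± 0.01 (mean log2 value ± SD, n = 2), a log2 difference of 1.04 (SE 0.13, limma adjusted p 0.0103), or 2.06-fold higher in late-onset cells.

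C4a, a near copy of C4b that RefSeq lists as a transcribed pseudogene, has its own probe set, and how signal divides between the copies is uncertain. It stood at 7.34 and 7.28 in the pools and at 8.06 and 8.10 in the tumours, a log2 difference of 0.77 (limma adjusted p 0.00962). Its call was lost without pool 1 (adjusted p 0.06) or pool 2 (0.0741). The C4 genes lie on chromosome 17 with Cyp21a1 between them, which stood at 0.25 (adjusted p 0.219). Of 11 measured genes between or beside them, 1 was called, the complement factor B gene Cfb, and it was lower, at -0.65 (limma adjusted p 0.0163).

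**Figure D2:**
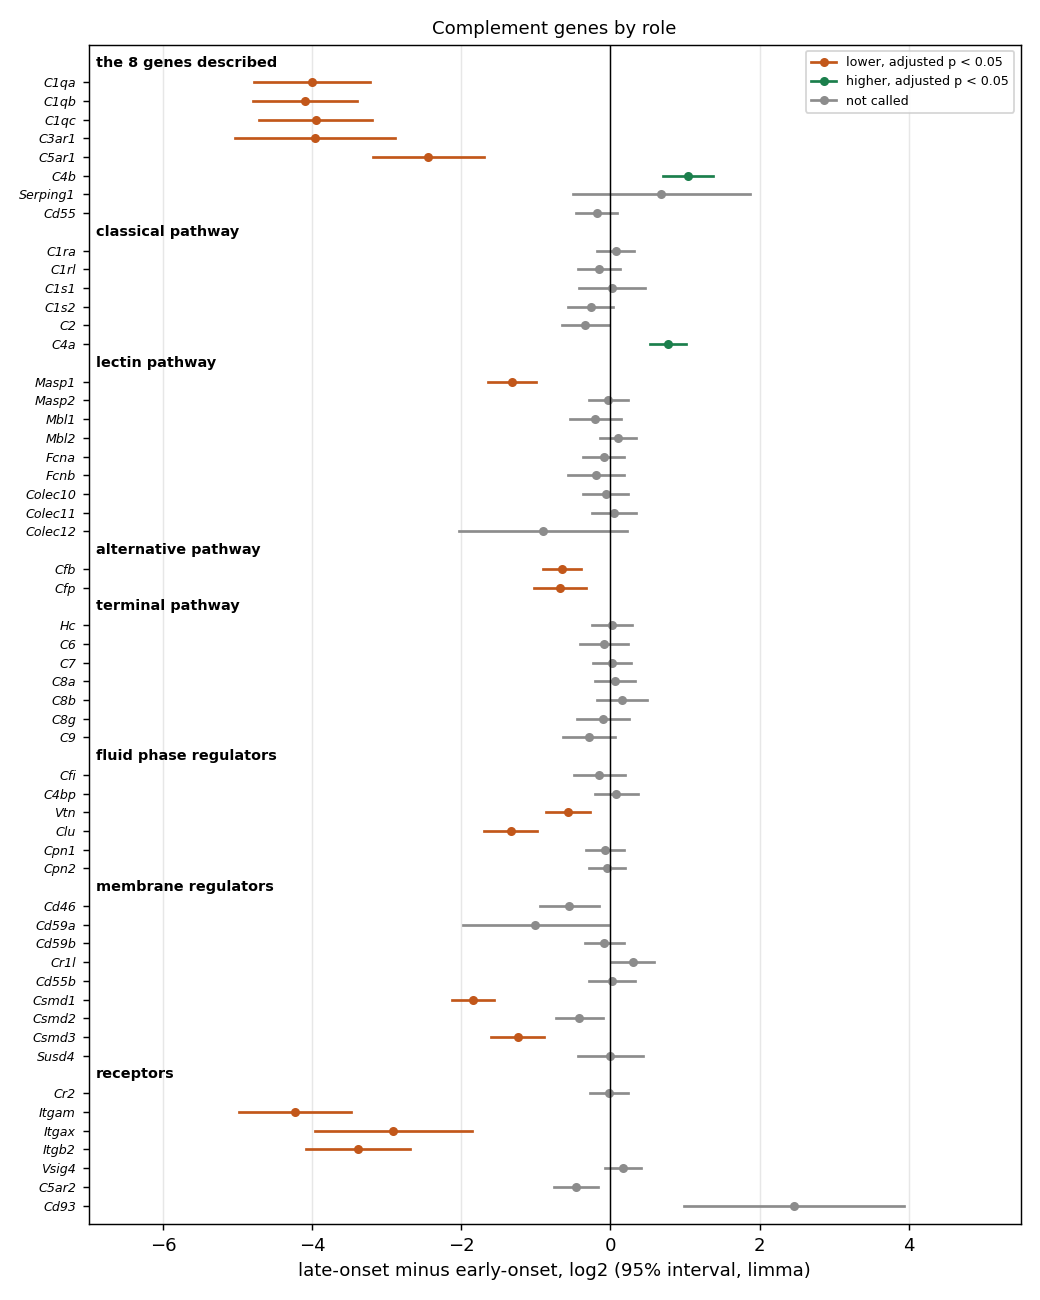
Late-onset minus early-onset log2 difference (horizontal axis) with its 95% interval from limma for the 8 genes and 46 other complement genes, grouped by role; colour marks genes lower or higher at an adjusted p below 0.05. The largest drops are those of the C1q genes, C3ar1 and the integrin receptor genes. To the right of 0 lie C4b and C4a, both called, and, among others not called, Cd93, farthest right at 2.46.

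The inhibitor genes did not pass the test. Serping1 encodes C1 inhibitor, which shuts down the C1 proteases, and stood at 5.55 and 5.79 in the pools, 5.62 in tumour 1 and 7.09 in tumour 2. Tumour 1 lay among the pools, and tumour 2 stood alone above them. The log2 difference was 0.68 (95% interval -0.51 to 1.87, limma adjusted p 0.407). Without tumour 1 it was 1.42 (adjusted p 0.0107), and without tumour 2 it was -0.056 (adjusted p 0.864), with the lone late-onset sample then assumed to vary like the pools.

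Most markers of pericytes and fibroblasts, cells that can express Serping1, were also high in tumour 2. Of 10 such markers, 9 were higher in tumour 2 than in tumour 1, with a median gap of 2.68. The collagen gene Col1a1 stood at 7.44 and 7.57 in the pools, 7.26 in tumour 1 and 10.23 in tumour 2, and the matrix gene Dcn at 5.84, 6.34, 4.96 and 9.23. The summed linear signal of the 10 was 3819 and 4169 in the pools, 3905 in tumour 1 and 7819 in tumour 2. Cspg4 was the brightest of them, at 11.51, 11.67, 11.61 and 11.19 on the log2 scale in the same order. It made up most of the sum except in tumour 2, so the sum understates how far most others rose there. Against early-onset cells 1 of the 10 fell and 0 rose, beside 8.12% and 6.59% of all genes. The marker that fell was Rgs5 (-0.56, limma adjusted p 0.0325), at 5.48 and 5.33 in the pools, 4.78 in tumour 1 and 4.91 in tumour 2. Their part in the Serping1 value was not tested.

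Cd55, decay-accelerating factor, which takes apart the C3 convertases on cell membranes, stood at 3.92 and 3.999 in the pools and at 3.69 and 3.85 in the tumours. The tumours lay just below the pools, at a log2 difference of -0.18 (95% interval -0.46 to 0.09, limma adjusted p 0.335). Its mean lay below 5.52, the lower quartile of the gene means, where RMA understates a change. Its neighbour and near copy Cd55b stood at 0.02.

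**Figure D3:**
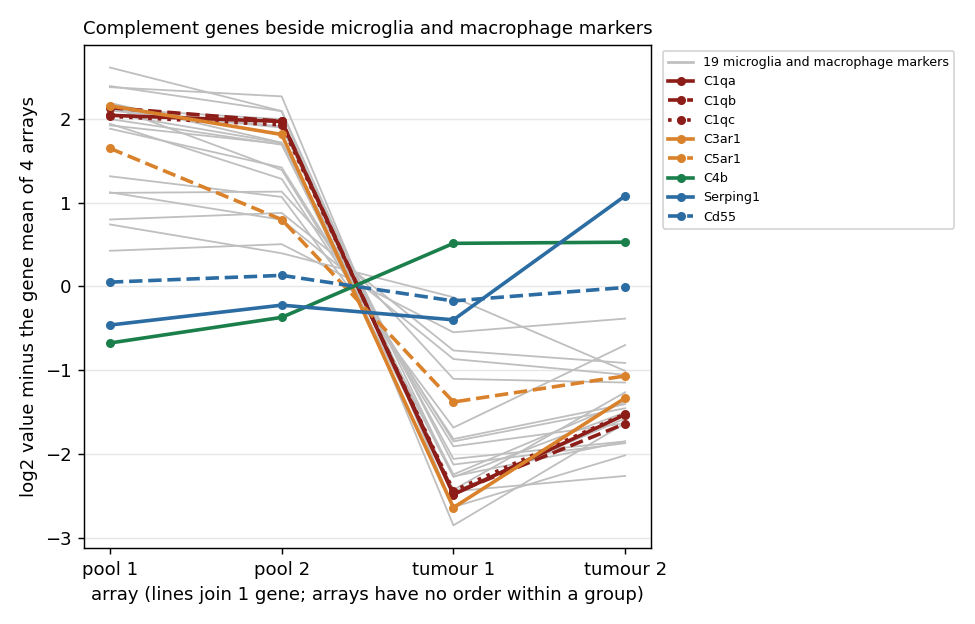
Log2 value minus the gene's mean over the 4 arrays (vertical axis) for the 8 genes in colour and 19 microglia and macrophage markers in grey, on each array (horizontal axis). The C1q genes and C3ar1 run with the markers, high in both pools and low in both tumours, whereas C4b runs the other way, Serping1 is raised in tumour 2 and Cd55 is nearly flat.

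The genes that fell did so beside the markers of microglia and macrophages. Of 19 measured markers, 18 fell and 0 rose, with a median log2 difference of -3.62 and a range from -4.70 (Ly86) to -0.93 (Siglech). The differences of the C1q genes and C3ar1 lie toward the lower end of that range, and that of C5ar1 in its upper part. The summed linear signal of the markers was 34213 and 28117 in the pools and 1901 and 2685 in the tumours. Csf1r, the receptor on which these cells depend, stood at 11.37 and 11.25 in the pools and at 6.997 and 7.41 in the tumours, and the microglial gene Cx3cr1 at 11.11, 10.91, 6.89 and 7.15. In sorted bulk samples, fewer cells of a type and less RNA per cell cannot be told apart, and the part of the myeloid markers in the complement values was not tested.

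A gap between the tumours ran through several lists. Tumour 2 was above tumour 1 in all 8 genes described, by a median of 0.87. Of the 46 other complement genes 21 were higher in tumour 2, at a median gap of -0.02. In C4b the gap was only 0.01 and in Cd55 0.16. Tumour 2 was also above in 15 of the 19 myeloid markers, by a median of 0.39, and all 10 endothelial markers, by 0.73. The same held for 8 of 10 astrocyte markers (median 0.38), 7 of 10 neuron (0.42) and 9 of 10 pericyte and fibroblast markers (2.68). Tumour 2 was higher in 5 of 10 neutrophil, 3 of 10 oligodendrocyte progenitor and 2 of 11 lymphocyte markers. Over all genes tested, 10066 of 19937 were higher in tumour 2, with a median gap of 0.00. The C1q genes were 0.83 to 0.95 higher in tumour 2 than in tumour 1.

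The genes with the most similar pattern over the 4 arrays were found by Euclidean distance between log2 values centred on each gene's mean. For the mean of the C1q genes the nearest were Laptm5 (distance 0.07), Selenop (0.15), Cd84 (0.16), Mertk (0.26) and Itgam (0.26). For C3ar1 they were the protease gene Ctss, the lysozyme gene Lyz2 and the Fc receptor chain gene Fcer1g, at distances of 0.26 to 0.30. For C5ar1 they were Tmem273, Fcgr4 and Ms4a6d (0.10 to 0.14). For C4b they were Cenpw, Ckap2l and Mtbp (0.06 to 0.07), for Serping1 Tmem200c, Loxl1 and Slco2a1 (0.16 to 0.22), and for Cd55 Pigq, Rnf11 and Acbd4 (0.01 to 0.02). With 4 arrays in 2 groups, likeness mostly reflects an equal group difference, and many genes share it.

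Markers of other cells that could hold complement transcripts were checked as well. Of 10 astrocyte markers, 6 fell and 0 rose, at a median log2 difference of -1.45 while C4b rose. Their part in the C4b value was not tested. The summed signal of the astrocyte markers was 11376 and 13768 in the pools and 5731 and 6316 in the tumours. Of 10 endothelial markers 1 fell, as did 1 of 10 neutrophil and 1 of 11 lymphocyte markers, against 8.12% of all genes. In each of these lists 0 rose, against 6.59%. The neutrophil marker that fell was Csf3r, the receptor gene for G-CSF, at -1.84 (limma adjusted p 0.0019), while S100a8 and S100a9 stood at -0.02 and -0.14, neither called. All neutrophil markers other than Csf3r were dim, between 3.68 and 5.975 on every array, so their lack of change says little. The lymphocyte markers other than Cd79b were about as dim, between 3.68 and 6.11, so few calls among them say little as well. Neutrophils also carry C5ar1, and their part in its value was not tested. Of 10 neuron markers, 5 fell and 1 rose, at a median log2 difference of -0.78. Tubb3 was the marker that rose, from 9.53 and 8.70 in the pools to 11.085 and 10.86 in the tumours. Summed signals ran from 842 to 1313 in the pools and 691 to 1175 in the tumours for endothelial markers, 533 to 537 and 362 to 369 for neutrophil markers, 437 to 451 and 400 to 419 for lymphocyte markers, and 2697 to 2811 and 3159 to 3192 for neuron markers. The lower neutrophil sum in the tumours came mostly from Csf3r, and the higher neuron sum came from Tubb3.

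Across the rest of the complement system, 10 of 46 measured genes fell and 1 rose, against 8.12% and 6.59% of all genes. The median log2 difference was -0.10, against -0.01 over all genes, and 35 of the 46 were not called. The integrin receptor genes account for 3 of the 10. In the classical pathway C4a rose, and the protease genes C1ra (0.07), C1s1 (0.02) and C2 (-0.33) were not called. All 7 measured genes of the terminal pathway, from Hc, the gene of C5, to C9, were not called, with log2 differences from -0.29 to 0.15. These 7 stood between 3.70 and 5.74 on every array, and C1ra and C1s1 between 3.84 and 4.31. Apart from C8g, the means of all of these lay below 5.52, the lower quartile of the gene means, where RMA understates a change.

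In the lectin pathway 1 of 9 genes fell, against 8.12% of all genes. Masp1, which encodes a protease of that pathway, stood at 10.12 and 10.27 in the pools and at 8.998 and 8.76 in the tumours, a log2 difference of -1.32 (limma adjusted p 0.0056). In the alternative pathway both measured genes fell: Cfb, for the convertase protease, and Cfp, for the stabilising protein properdin (-0.68, limma adjusted p 0.0334). The Cfb call was lost without pool 1 (adjusted p 0.103) or pool 2 (0.0987). Cfp was not called when pool 1 (0.12), pool 2 (0.181) or tumour 2 (0.0728) was left out. Subtracting array medians (0.0589) or quantile normalization (0.0502) also ended its call.

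Among 6 regulators found in fluid, Clu and Vtn fell and 0 rose. Clu encodes clusterin, which blocks the membrane attack complex and is abundant in astrocytes, and stood at 11.53 and 11.87 in the pools and at 10.33 and 10.39 in the tumours (-1.34, limma adjusted p 0.0065). Vtn, for vitronectin, was at -0.56 (limma adjusted p 0.0351) and lost its call when any 1 of the 4 samples was left out (0.0762 to 0.188). Subtracting array medians (0.0563) or quantile normalization (0.0574) ended it too. Among 9 membrane regulators Csmd1 (-1.84, limma adjusted p 0.00208) and Csmd3 (-1.25, limma adjusted p 0.00785) fell and 0 rose. Both belong to a family of large neural membrane proteins with complement control repeats. The Csmd3 call was lost without pool 2 (0.0542). Susd4 stood at 0.00 and Cr1l, the main rodent membrane inhibitor of C3 activation, at 0.30 (limma adjusted p 0.164), neither called.

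The globular C1q domain also occurs in genes outside complement. Of 27 such genes measured, 3 fell and 2 rose, with a median log2 difference of -0.03, and 14.7% of all genes were called in either direction. The synaptic organiser genes C1ql1 (-0.84), C1ql2 (-0.99) and C1ql3 (-2.03) fell. C1ql3 stood at 10.48 and 10.74 in the pools and at 8.69 and 8.48 in the tumours (limma adjusted p 0.00274). The cerebellin gene Cbln1 rose by 1.53 (limma adjusted p 0.0246) and C1qtnf1, for a secreted relative of adiponectin, by 0.82 (limma adjusted p 0.0297). Without pool 1, calls were lost for C1ql1 (0.0552), C1ql2 (0.0746) and C1qtnf1 (0.112). Without pool 2 they were lost for C1ql1 (0.0725), C1ql2 (0.0503), C1qtnf1 (0.162) and Cbln1 (0.0806), and Cbln1 was also lost without tumour 1 (0.0616).

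**Figure D4:**
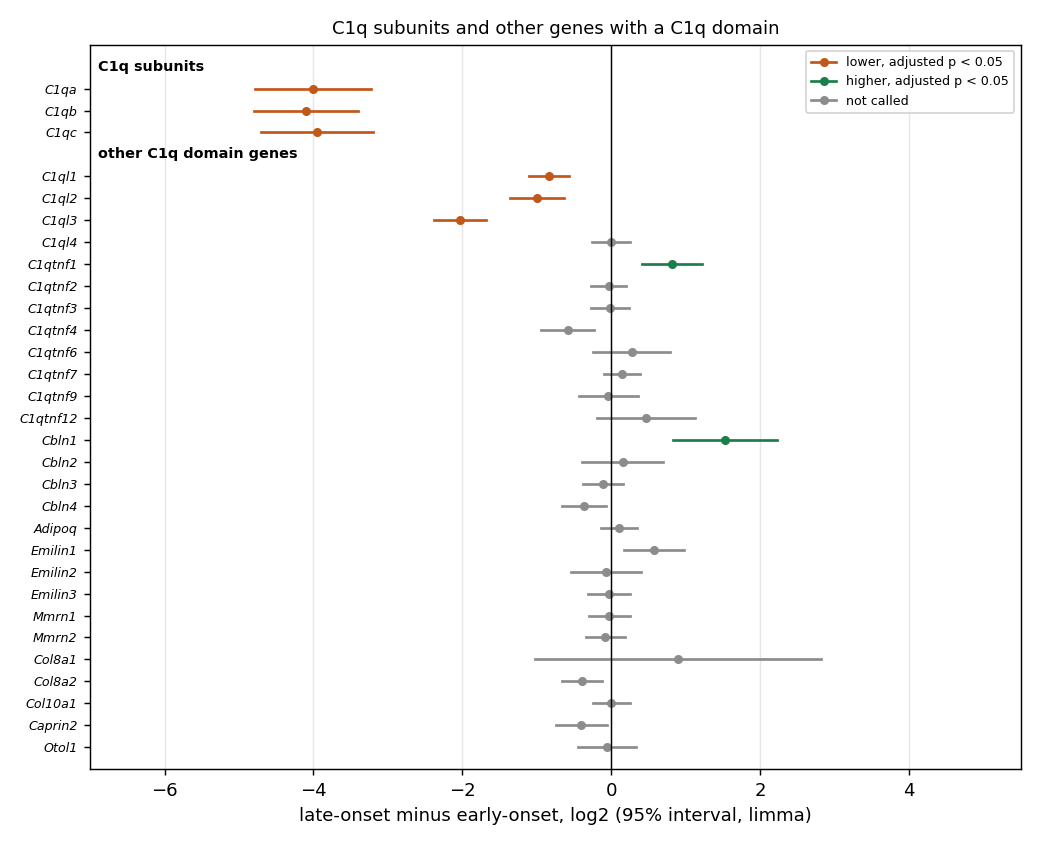
Late-onset minus early-onset log2 difference (horizontal axis) with its 95% interval from limma for the 3 C1q subunit genes and 27 other genes with a C1q domain; colour marks genes lower or higher at an adjusted p below 0.05. The subunits lie between -4.10 and -3.95, and the lowest of the others, C1ql3, lies at -2.03.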

How the data were processed

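The samples were hybridised to Affymetrix whole-transcript mouse arrays, 2 per group. Per the submitters' processing notes, the authors summarised probe sets with RMA on the log2 scale, and affy version 3.4.2 is named with no parameters. RMA corrects background and brings arrays to a common distribution, which hides any shift common to most genes. Column medians ran from 6.63 to 6.71. Of 34760 probe sets, 21640 had 1 gene symbol in the platform annotation, 1321 several and 11799 none, and only the first kind was used. By Entrez identifier 21553 matched the RefSeq table and 0 symbols changed.

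Late-onset was compared with early-onset by limma 3.58.1 (R 4.3.3; lmFit, then eBayes without trend) over 19937 genes, unfiltered. Residual degrees of freedom were 2 and the prior 3.27. Adjusted p-values are Benjamini-Hochberg over all genes. The procedure was tested on simulated arrays. The genes described, the lists and the alternatives were chosen with earlier results of these data known. Named beyond the 8 genes were called genes of the complement and C1q domain lists, up to 3 bright uncalled genes or markers per list, and nearest profiles. C1ra, C1s1, C9, Vsig4, Cd55b, S100a8, S100a9, Ly86, Siglech, Cx3cr1, Csf1r, Olig2, Sox10, Dcn, Rgs5 and the chromosomal neighbours fall outside that rule and were chosen after their values were seen. Other settings tried were variance models, dim-gene filters, array scalings, averaged probe sets, array weights, a replicate block and leaving out each sample.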

Additional observations from a re-analysis of the deposited data

How the results depend on the processing

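Without 1 sample, the lone sample left in a group is assumed to vary like the other group. Calls from such fits rest on that assumption. The 5 complement genes that fell and C4b kept direction and call in every alternative that tested them. Over these the log2 difference ran from -4.48 to -3.53 for C1qa, -4.51 to -3.68 for C1qb, -4.41 to -3.49 for C1qc, -4.61 to -3.31 for C3ar1, -2.87 to -2.02 for C5ar1 and 0.89 to 1.19 for C4b, whose adjusted p reached 0.0499 without pool 1. Serping1 turned to -0.056 without tumour 2 and passed at 1.42 without tumour 1. The filter above the median level left out C5ar1, Serping1 and Cd55, and that above the lower quartile left out Cd55. With each sample left out in turn, 5 of the 8 genes fell each time and 1 to 2 rose, 6 to 9 of the other complement genes fell and 0 to 2 rose, 1 to 7 C1q domain genes were called, and 850 to 2577 genes were called in all, against 2931. The lowest of these counts over all genes came without pool 2, and without pool 1 it was 943. Of the other complement genes 2 rose, in place of 1, with an intensity trend, above the lower quartile, above the median, after median subtraction, with the mean of probe sets and with the replicate block, Cd93 being the added gene. Cd93 stood at 1.72 without pool 2 and 1.88 without tumour 1. Median subtraction moved the median of all genes by 0.13, and 65.7% of calls were then higher, against 44.8%. The replicate numbers only name samples: over genes, pool 1 minus pool 2 correlated with tumour 1 minus tumour 2 at -0.0439. With the replicate block 1833 genes were called, and all 6 complement calls held, while those of Cfp (adjusted p 0.0761) and Vtn (0.0697) were lost. The causes of these changes were not tested.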
